A study of Caenorhabditis elegans with 2 samples.

Results

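The 7 genes described here, hmg-1.1, hmg-1.2, hmg-3, hmg-4, hmg-5, hmg-11 and hmg-12, encode high mobility group proteins of Caenorhabditis elegans, among 19973 nuclear protein-coding genes. They were selected on measured peaks, as genes whose body or promoter window was searched for summits in 8 peak lists, so the presence, signal and reproducibility of their regions are given as a description, with no test. The promoter window covers the 1000 bp before and the 200 bp after each annotated start of transcription. The lists come from ChIP-seq with an anti-GFP antibody for EGL-44, the worm TEAD protein, in whole young adults aged 66.5 h, in 2 biological replicates of 1 group. All worms were of strain RW12173, in which CRISPR placed GFP at egl-44 together with an unc-119(+) rescue flanked by loxP (allele st12173), in an unc-119(tm4063) background. They were synchronized by L1 starvation after bleaching. No untagged, mutant or other-stage group was compared. Each list gives regions with a deposited signal, and the ranked lists add a global irreproducible discovery rate (IDR), the estimated share of irreproducible regions at that rank. In the thresholded lists it is 0.01 or less. Read counts were not among the values used, and the depth of each library is unknown. A site bound in few cells and a site bound weakly in many cannot be told apart in whole animals.

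High mobility group proteins are abundant chromatin proteins. HMGB-type proteins bend DNA through HMG boxes, and SSRP1 proteins carry an HMG box into FACT, the histone chaperone that opens nucleosomes ahead of polymerases. TFAM-type proteins package mitochondrial DNA, and HMGA-type proteins hold the minor groove of AT-rich DNA with short AT hooks. The set mixes these classes. In the translated coding sequences the AT hook core (arginine, glycine, arginine, proline in a row) occurred 3 times in hmg-11 and 4 times in hmg-12, and 0 times in the other 5 genes. The name HMG box genes thus covers genes of both classes, and hmg-11 and hmg-12 are called AT hook genes here.

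In the list of both replicates together, 2 of the 7 genes, hmg-1.1 and hmg-11, held a thresholded summit, where 5.86% of all nuclear protein-coding genes did. The conservative list held the same 2 genes (background 5.47%). Replicate 1's own thresholded list held hmg-1.1 alone (background 3.23%), replicate 2's own list held 0 of the 7 (background 2.19%), and 0 of the 7 were in both replicates' own lists (background 1.52%). Among the 10224 genes whose body and window together are as long as those of the members (1662 to 3524 bp), 4.12% held a thresholded summit in the pooled list. Since summits at these genes chose the members, nothing is read from these shares.

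Every member had at least 1 region somewhere in the pooled ranked list, which is long and sets no reproducibility limit. It held 7 of 7 members, against 77.9% of all genes. The ranked list behind the conservative one held 6 (background 77.3%), that of replicate 1 held 7 (71.8%) and that of replicate 2 held 6 (70.0%), with hmg-5 missing from both lists of 6. The strongest pooled region per gene ranged from a signal of 25.9 at hmg-5 to 85.01 at hmg-1.1, with a median of 51.0, beside a median of 34.4 over the 15559 genes with a ranked region. From high to low the order was hmg-1.1, hmg-11, hmg-1.2, hmg-12, hmg-4, hmg-3 and hmg-5. This order was not the same in each replicate. In replicate 1's ranked list hmg-12 (38.1) stood above hmg-1.2 (36.0) and hmg-11 (35.6), and hmg-4 (11.8) was the lowest of the 7, below hmg-3 (22.8) and hmg-5 (20.2). In replicate 2's list hmg-11 (38.7) stood above hmg-1.1 (32.2), and hmg-4 (23.1) above hmg-12 (21.4). The sources give no common scale for the signals of different lists, so values of the replicates set side by side are descriptions.

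**Figure D1:**
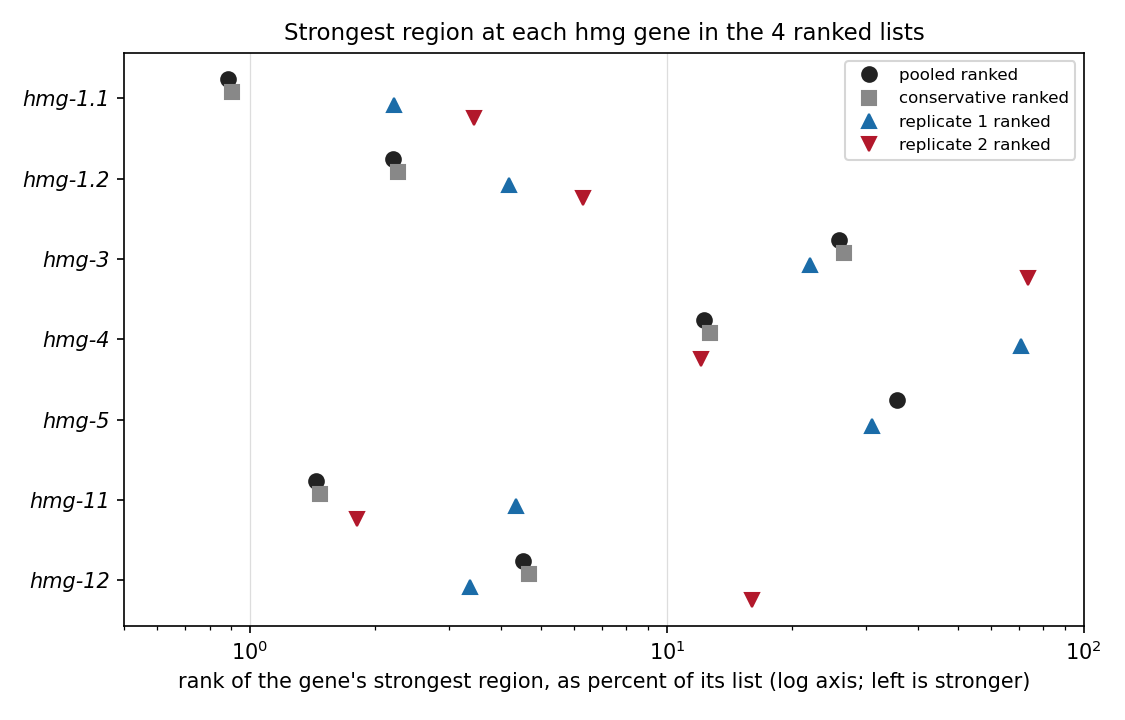
Rank of the strongest region at each hmg gene, as a percent of the list it is in (log axis, left is stronger), in the 4 ranked lists. The 4 genes hmg-1.1, hmg-1.2, hmg-11 and hmg-12 lie in the strongest 0.888% to 4.53% of the pooled list, while hmg-3, hmg-4 and hmg-5 lie at 12.3% to 35.7%, and hmg-5 has no symbol for the conservative list or replicate 2.

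The gene hmg-1.1 (WBGene00001971, chrII:14250695-14251450, plus strand, ce11) encodes a small HMGB-type protein of 95 residues. Its thresholded region lay at chrII:14250141-14250450, with the summit 399 bp upstream of the transcript start in intergenic sequence. The pooled signal was 85.01, rank 686 of 1553 thresholded regions, with a global IDR of 0.00463. In the replicates' own ranked lists the region had a signal of 42.9 in replicate 1 and 32.2 in replicate 2, with summits 8 bp and 0 bp from the pooled one. The IDR there was 0.721 in replicate 1 and 0.0834 in replicate 2, so neither replicate alone held this region within the limit. In the conservative list the region had an IDR of 0.00302. The window also covers the summit for a pair of non-coding RNA genes, Y48B6A.18 and Y48B6A.23, and Y48B6A.18 has the nearer start.

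Replicate 1's own thresholded list did name hmg-1.1, but through another region. That region, chrII:14250370-14250659, had a signal of 23.6 (rank 735 of 769), an IDR of 0.00849 and its summit 180 bp upstream of the start, within exons of the non-coding genes Y48B6A.18 and Y48B6A.21. Its neighbour in replicate 1's ranked list, with the higher signal of 42.9, was outside the limit. In replicate 2 the place held a region of signal 6.23 with an IDR of 0.778, and in the pooled ranked list one of 33.2. The order of signal and the order of IDR therefore differed at this promoter. A further ranked region of signal 26.0 lay in the intron of hmg-1.1, with no summit from either replicate's own ranked list in it. The ranked list behind the conservative one gives it signals of 8.41 and 15.9 for 2 inputs, which carry no replicate name.

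The strongest region beside any member lay just past hmg-1.1 and outside the window. At chrII:14251479-14251610, with the summit 75 bp beyond the end of hmg-1.1, the pooled signal was 182, rank 72 of 1553. It was in both replicates' own thresholded lists, with a signal of 103 in replicate 1 (IDR 3.17e-05) and 83.3 in replicate 2 (IDR 2.77e-05). The summit also lies in the promoter window of the next gene on the same strand, Y54G11A.2, which begins 906 bp after hmg-1.1 ends and encodes a coiled-coil domain-containing protein per RefSeq, and in that of the non-coding gene Y48B6A.21. Its assignment to a gene is uncertain. A weaker thresholded region (8.53) overlapped it 295 bp beyond the gene end.

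The sequences of these places, read from the RefSeq genome WBcel235, are shown with those of the hmg-11 and hmg-1.2 promoter regions, since these are the regions within the IDR limit and the one nearest to it. Each is 101 bases centred on the summit, plus strand, 5′ to 3′. Capitals mark CATTC or its reverse complement GAATG, the first 5 letters of the TEAD core word CATTCC, a shorter word chosen after the sequences had been seen.
hmg-1.1 promoter, chrII:14250246-14250346: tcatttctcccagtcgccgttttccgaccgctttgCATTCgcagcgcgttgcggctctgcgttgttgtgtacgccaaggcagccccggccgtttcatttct
hmg-1.1 promoter, replicate 1 region, chrII:14250465-14250565: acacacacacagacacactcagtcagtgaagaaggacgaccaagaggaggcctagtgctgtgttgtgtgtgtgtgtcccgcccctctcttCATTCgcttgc
beyond hmg-1.1, chrII:14251475-14251575: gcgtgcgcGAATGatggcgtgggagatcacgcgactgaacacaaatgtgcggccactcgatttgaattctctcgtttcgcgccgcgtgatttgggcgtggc
hmg-11 promoter, chrII:4672669-4672769: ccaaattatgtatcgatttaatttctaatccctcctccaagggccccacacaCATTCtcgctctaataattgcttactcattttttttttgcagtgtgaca
hmg-1.2 promoter, chrIII:6280161-6280261: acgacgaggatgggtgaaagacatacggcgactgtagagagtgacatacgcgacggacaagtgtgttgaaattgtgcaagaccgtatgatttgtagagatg

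The full word CATTCC, or its reverse complement GGAATG, was absent within 100 bp of the strongest summit of every member, 0 of 7, and of both further hmg-1.1 summits. It occurred there at 8.59% of the 1537 nuclear thresholded summits and at 10.6% of the 78252 ranked nuclear regions outside the IDR limit. It was also absent from all 7 member promoters, taken as 250 bp before to 50 bp after the outermost start, where 12.6% of all promoters hold it. The shorter word CATTC lay within 100 bp of the strongest summit of 4 members, hmg-1.1, hmg-1.2, hmg-3 and hmg-11, and of 36.5% of thresholded summits and 37.1% of those outside the limit. At hmg-1.2 it lay outside the printed bases. All 7 member promoters held it, as did 50.8% of all promoters. A match is not a site, and no match says nothing of other sequences. The hmg-1.1 promoter summit was rich in G and C, at 56.7% of 201 bp, above the 54.7% that marks the 90th percentile of thresholded summits (median 45.8%), while that of hmg-11 held 41.8%. Within its printed bases, the replicate 1 region at hmg-1.1 carried an alternating run of 10 bases of CA and one of 12 bases of GT, on either side of its summit. The CA run lies at the edge of the printed bases, so its full length is not given.

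The gene hmg-1.2 (WBGene00001972, chrIII:6280380-6282438, plus strand) encodes an HMGB-type protein that has been linked to Wnt signalling. It lay just outside the limit: the region at chrIII:6280056-6280365 had a pooled signal of 62.5 and an IDR of 0.0107. The member just inside in the pooled list was hmg-11, with 71.7 and an IDR of 0.00997. In the ranked list behind the conservative one, the IDR was 0.0107 at hmg-1.2 and 0.00379 at hmg-11. Of the 1553 pooled thresholded regions, 228 had a lower signal than the hmg-1.2 region. In the pooled ranked list, 411 regions had a higher signal and an IDR above 0.01. The summit lay 169 bp upstream of the nearest of 3 starts, and no other gene shared it. Its signal was 36.0 in replicate 1 (IDR 0.0647) and 27.4 in replicate 2 (IDR 0.137), with summits 69 and 19 bp downstream of the pooled one. Both replicates thus ranked a region at this promoter, and neither held it within the limit. The 4 other ranked regions at hmg-1.2 had pooled signals of 3.44 to 28.2.

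Neither FACT subunit gene held a thresholded region in any list. For hmg-3 (WBGene00001973, chrI:5815609-5818132, minus strand), an SSRP1 gene, the strongest pooled region had a signal of 29.9 and lay in coding sequence 445 bp downstream of the start. Replicate 1 ranked a region of 22.8 at 143 bp upstream, and replicate 2's only region (11.3) lay 320 bp downstream of the start. In their own ranked lists the replicates' strongest regions were therefore at different places. In the ranked list behind the conservative one, the 29.9 region carried unnamed input signals of 19.4 and 11.3. A region of 47.3 lay 80 bp beyond the hmg-3 end in the 3′ UTR of lin-35, the retinoblastoma gene, whose own end overlaps that of hmg-3 on the other strand. It was also above the limit.

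For hmg-4 (WBGene00001974, chrIII:7379143-7381596, minus strand), the other SSRP1 gene, the strongest pooled region had a signal of 38.4 and an IDR of 0.512. The summit of that region also lay in the promoter window of T20B12.3, a gene on the other strand. All 5 pooled regions of hmg-4 had summits in coding sequence, with signals of 3.38 to 38.4. In replicate 2 the strongest value was 23.1, at 379 bp downstream of the start, and in replicate 1 the only region (11.8) lay 2372 bp downstream, near the other end of the gene. In their own ranked lists the replicates again did not hold the same place. In the ranked list behind the conservative one, the 38.4 region carried unnamed input signals of 12.2 and 23.1. The same 12.2 was also given there for the neighbouring regions at 129 and 789 bp downstream. The gene for the FACT partner of both SSRP1 proteins, spt-16, held a ranked region of 43.7 (31.0 in replicate 1 and 17.6 in replicate 2) and no thresholded one.

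The gene hmg-5 (WBGene00001975, chrIV:7644895-7646219, minus strand) encodes the TFAM-type protein that binds mitochondrial DNA. Its promoter window held no ranked region in any of the 4 ranked lists. The only pooled regions, of signal 25.9 and 6.02, lay near the 3′ end of the gene, 1286 and 1083 bp downstream of the start. Replicate 1 ranked them at 20.2 and 2.82, and replicate 2 ranked neither. The gene had the weakest strongest region of the 7 in the pooled list.

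The AT hook gene hmg-11 (WBGene00001976, chrII:4673085-4673746, plus strand) held the second thresholded region, at chrII:4672564-4672873. Its summit lay 366 bp upstream of the start, with a pooled signal of 71.7, rank 1048 of 1553. The signal was 35.6 in replicate 1 (IDR 0.255), with the summit 77 bp downstream of the pooled one, and 38.7 in replicate 2 (IDR 0.0821) at the same base. The replicates gave nearly equal signals, and neither had the region within its own limit. In the conservative list the region had an IDR of 0.00379. The promoter is shared: clec-140, a C-type lectin gene on the same strand, overlaps hmg-11 and starts closer to the summit, and the window of the divergent kinase gene T05A7.6 also covers it. A second ranked region (19.5) lay in hmg-11 coding sequence, with 22.9 in replicate 1 and none in replicate 2.

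The other AT hook gene, hmg-12 (WBGene00001977, chrII:11916513-11917643, plus strand), had its strongest region inside the gene. At chrII:11916627-11916936 the pooled signal was 51.0 with an IDR of 0.12, the summit in coding sequence 269 bp downstream of the start. It had a signal of 38.1 in replicate 1 and 21.4 in replicate 2. The summit of this region also lay in the promoter window of vps-15. A region of lower signal, 29.9, at 735 bp downstream had the lower pooled IDR, 0.0428, with 23.5 in replicate 1 and 12.04 in replicate 2. In the ranked list behind the conservative one the order was reversed, with an IDR of 0.0306 for the 51.0 region and 0.485 for the 29.9 region. The third, of 31.3, lay 791 bp upstream in an intron of vps-15, a divergent neighbour, with 26.9 and 13.0. Each of the 3 was higher in replicate 1, and none was thresholded in any list.

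**Figure D2:**
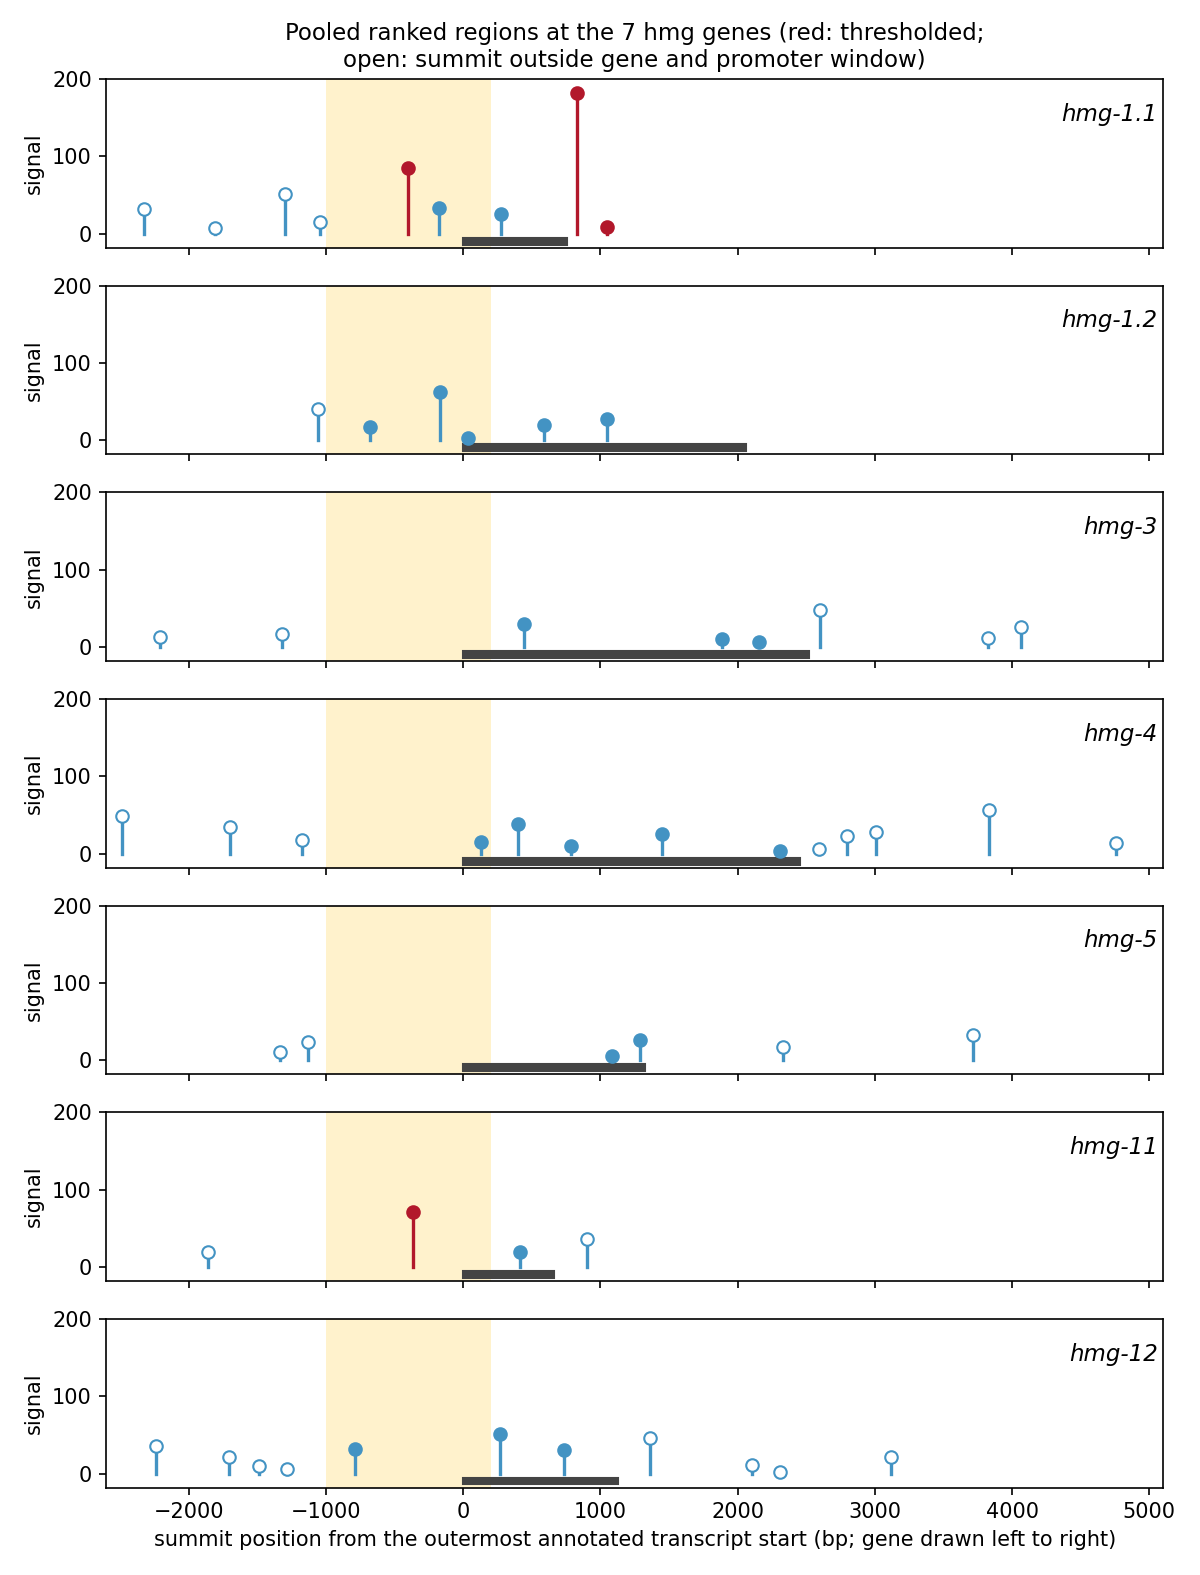
Pooled ranked regions around each hmg gene by distance of the summit from the outermost transcript start (bp) and deposited signal, with genes drawn left to right as dark bars and the promoter window shaded. Red marks thresholded regions: the promoter regions of hmg-1.1 (85.01) and hmg-11 (71.7), and the pair beyond the end of hmg-1.1 (182 and 8.53). Open circles lie outside the gene and window.

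The pooled ranked regions at the members numbered 23, from 2 to 5 per gene, and 10 of them also lay in the body or window of another gene. The summit was in coding sequence for 12, in an intron for 4, intergenic for 4, and in a 5′ UTR, a 3′ UTR and a non-coding exon once each. Of the regions with a pooled signal above 60, all 3 (hmg-1.1, hmg-11 and hmg-1.2) had summits upstream of the start, between 169 and 399 bp away. Those of hmg-3, hmg-4, hmg-5 and hmg-12 that were strongest were downstream of it. In all, 16 of the 23 summits were downstream of the nearest start.

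**Figure D3:**
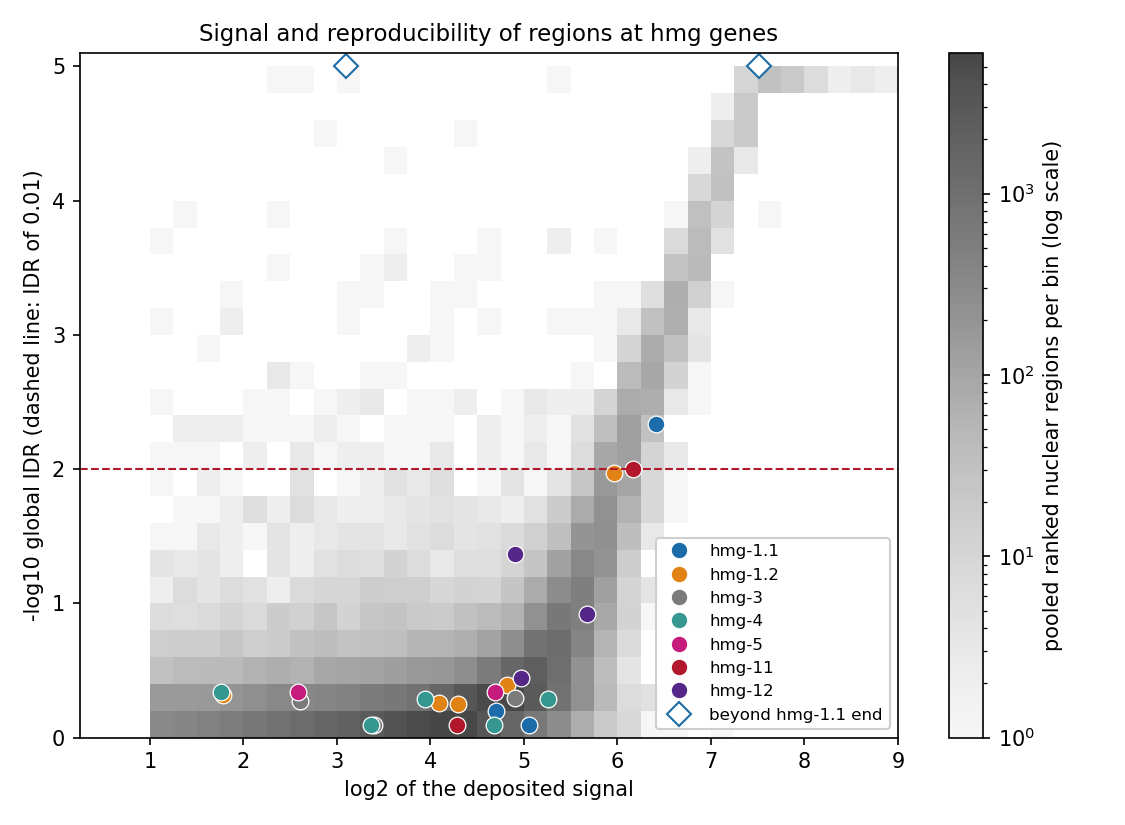
Deposited signal (log2) against −log10 of the global IDR for the pooled ranked regions at each hmg gene, over all pooled ranked nuclear regions in grey bins. The dashed line is the limit of 0.01: hmg-1.1 and hmg-11 are above it, hmg-1.2 just below, and the open symbols are the regions beyond the end of hmg-1.1.

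By the replicates' own ranked lists, 7 of the 23 regions had a summit of both replicates within them, 13 of 1 replicate and 3 of neither. Among the 7, the signal was higher in replicate 1 for 6 and in replicate 2 for hmg-11 alone. These counts do not show that the other regions lacked signal in a replicate. In the ranked list behind the conservative one, the 3 regions with neither, at hmg-1.1, hmg-1.2 and hmg-3, carried signals for both unnamed inputs. Of the 13, those in introns of hmg-1.2, at hmg-5 and in hmg-11 coding sequence were absent from that list. The rest of the 13 carried signals for both inputs there. No pooled region at a member was matched in both replicates' thresholded lists, in contrast to the region beyond hmg-1.1.

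**Figure D4:**
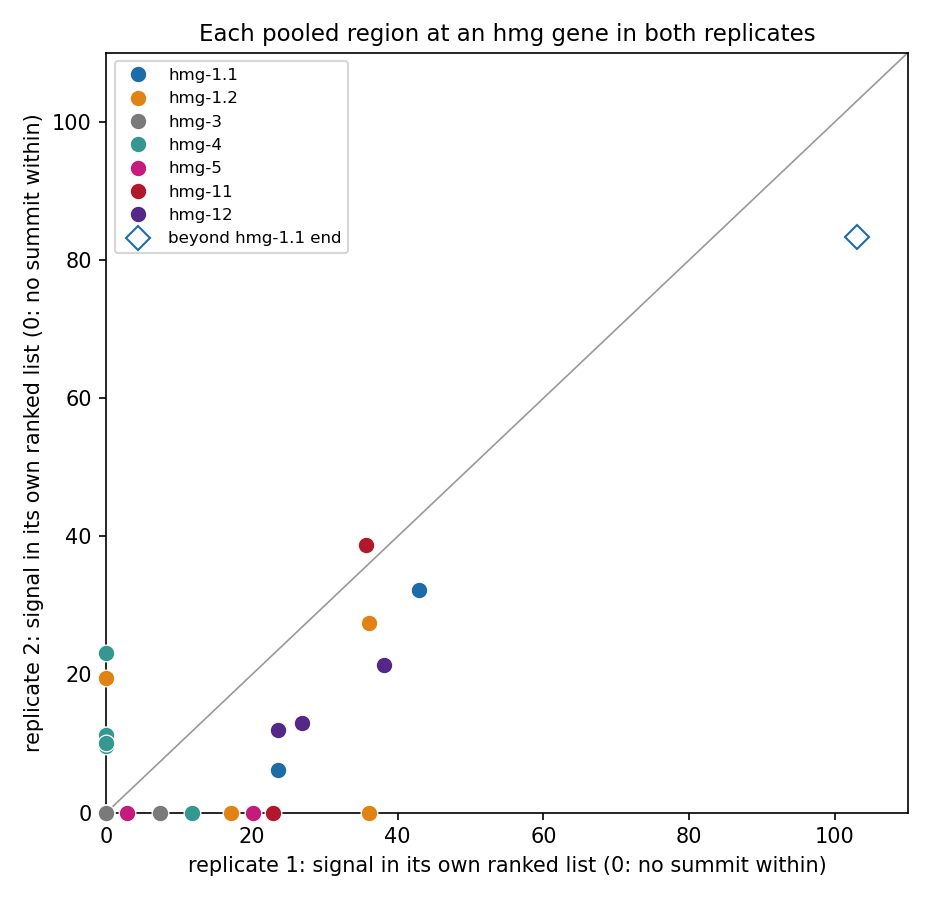
Signal of each pooled region at an hmg gene in replicate 1 and replicate 2, each from its own ranked list, with 0 where the replicate had no summit in the region and the diagonal as equality. The hmg-11 promoter (35.6 and 38.7) lies above the diagonal and the other regions seen in both replicates below it, and 1 replicate 1 summit (36.0) is plotted for 2 overlapping regions of hmg-1.2.

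Genes with signals most like the members were found in the 2 inputs of the conservative comparison, whose columns carry no replicate name, among 1092 genes with a region in that list. For hmg-1.1, with 42.9 and 32.2, the nearest by Euclidean distance on log2 signal were Y18D10A.4 (43.1 and 32.2, distance 0.005) and hst-6, a heparan sulfate sulfotransferase gene (42.7 and 31.9, 0.013). For hmg-11, with 35.6 and 38.7, they were ser-2, a tyramine receptor gene (35.2 and 38.3, 0.020) and C24H12.4 (36.3 and 38.3, 0.030). The likeness is over 2 inputs only. At hmg-1.1 and hmg-11 the input values equal the signals given above from the replicates' own ranked lists.

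Other HMG box genes, chaperones and linker histones give the setting of these values. Of 9 other HMG box genes, 2 held a thresholded region: hmg-6, with 95.9 at 422 bp upstream of its start, and hmg-20, with 71.3 at 734 bp upstream. The hmg-6 summit lay in the snoRNA gene F47G4.9, so its assignment is uncertain. Neither region was in a replicate's own thresholded list. The TCF gene pop-1 (26.4), the Sox genes sox-2 (48.7), sem-2 (35.9) and egl-13 (50.4), and the remodeller subunit genes swsn-3 (54.6) and pbrm-1 (67.1) had ranked regions only, and sox-3 had none in the pooled list.

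Of 22 FACT partner, histone chaperone, elongation and remodelling genes, 2 (9.09%) held a thresholded region. They were unc-85, an ASF1 histone chaperone gene (125, at chrII:4701590-4701899, 324 bp upstream), and lin-53, which encodes an RbAp48-type histone-binding protein (101, 229 bp upstream). Both were in both replicates' own thresholded lists, unc-85 with 72.5 and 59.6 and lin-53 with 51.5 and 49.3 in replicates 1 and 2, unlike any member. Of the 8 linker histone genes, 0 held a pooled thresholded region, and his-24 held one in the conservative list alone (59.1). Among 5 genes of mitochondrial DNA maintenance, the setting of hmg-5, and among 8 telomere genes, 0 did, with ranked signals of at most 48.0 and 55.9. These lists were given by their counts alone, beside the background of 5.86%, and no difference between them was tested.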

How the data were processed

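EGL-44 ChIP-seq peaks of 2 biological replicates were analysed from 8 deposited lists, 4 thresholded and 4 ranked. The labels give each replicate its own biosample and the same strain. The deposited signal values were made by the authors. For the aligner, the peak caller and the scaling of signal between lists, the answer is "not given in the sources used here". A control library named in the labels was left out. The deposited ranked lists also give the −log10 of the global IDR. The build is ce11 per the labels and the deposited file lists, and all regions lay within the WBcel235 chromosomes. A further 6 unnamed input columns of the ranked lists were not used, and 2 were, with no replicate assigned.

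Annotation was Ensembl release 115. RefSeq gave a symbol to 46881 of its 46926 genes. A gene held a region if the summit lay in the gene or its promoter window. A pooled region was matched in a replicate if the replicate's summit lay within it. No test was run: 1 group has no contrast. The members and gene lists were chosen with earlier results of these data known. Named genes were all members, genes sharing their thresholded summits, list genes with a thresholded summit, and the 2 genes closest in input signal. Other genes named in the lists and as neighbours were named after their values were seen. Alternatives covered the window, body, overlap, nearest start, small RNA genes, list, replicate and IDR limit. The assignment code, tested on simulated data, recovered 200 of 200 planted genes. Python 3.11.15, NumPy 2.4.6, pandas 2.3.3 and Biopython (translation) were used.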

Additional observations from a re-analysis of the deposited data

How the results depend on the processing

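The count of 2 members with a pooled thresholded summit, and the same 2 genes, hmg-1.1 and hmg-11, were found with windows from 500 and 2000 bp upstream, with the promoter window alone, with any overlap of the region, without summits within 300 bp of small RNA genes, in the conservative list, and with 200 bp beyond the gene end also counted, a setting chosen after seeing the data. The count was 0 with the gene body alone (background 2.78%), 0 with each summit given only to the nearest start of any biotype (2.83%), and 0 at an IDR of 0.001 or less (2.48%). At an IDR of 0.05 or less it was 4, with hmg-1.2 and hmg-12 added (11.4%). In a single replicate's own list it was 0 to 1 (background 2.19% to 3.23%). The count of members in both replicates' own lists, 0, became 1, hmg-1.1, with any overlap of the region and with 200 bp beyond the gene end counted, with the region past its 3′ end as what replicate 2 adds. The other 6 alternatives for it gave 0. CATTCC was absent at member summits within 50 and 200 bp too. No paired analysis was possible because there is 1 group. Depth is unknown, and 2 replicates limit every statement on reproducibility.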

Other observations

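Low-signal regions within the IDR limit, such as the one of 8.53 past hmg-1.1, were nearly always beside a stronger one. Of 76 pooled thresholded regions with a signal under 20, 75 overlapped a stronger thresholded region. In the list that compares both inputs, the 8.53 region carried the same input signals, 103 and 83.3, as its neighbour of 182. At hmg-1.2, a region of 3.44 also overlapped the promoter region of 62.5, but neither of these was within the limit. The pooled list had 1576 regions with an IDR of 0.01 or less and another 63 between 0.01 and 0.011, where hmg-1.2 lay.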
